A study of Mus musculus with 6 samples.

Results

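The genes described here encode the proteasome and its immune forms. They were the protein-coding genes whose symbols begin with Psma, Psmb, Psmc, Psmd, Psme, Psmf or Psmg followed by a digit. There were 49 such genes among 15388 in the table, and all 49 passed the filter on low values, Psma8 and Psmb9 only through the Positive fraction. The 5 immune forms among them were Psmb8, Psmb9, Psmb10, Psme1 and Psme2. The symbol rule also took in Psmc3ip, which is named after its binding to Psmc3 and is no proteasome subunit, and Psme2b, a copy of Psme2 whose role was left unplaced.

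Hippocampal RNA came from Cx3cr1-Cre/ERT2+; NuTRAP+ mice, which carried a tamoxifen-inducible Cre recombinase driven by the promoter of the fractalkine receptor gene Cx3cr1 together with the floxed NuTRAP reporter. Mice received tamoxifen at about 3 months of age and no other treatment, and recombined cells then carried a green fluorescent protein on their ribosomes. Each of 3 animals, numbered 201, 207 and 208, gave 1 Input library from the cleared homogenate and 1 Positive library from the ribosomes pulled down with an antibody to that tag, so both fractions shared the genotype, the tamoxifen and the tissue. The Cx3cr1 promoter is active in microglia and also in border macrophages and in blood monocytes, so it does not by itself limit the tag to microglia. Per the study's methods, brains of this line were collected some weeks after tamoxifen so that short-lived labelled monocytes would have been replaced.

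The proteasome degrades proteins tagged with ubiquitin. Its 20S core is a barrel of alpha and beta rings, of which 3 beta subunits cut peptide bonds, and its 19S cap holds ATPases that unfold the substrate and subunits that recognise and remove ubiquitin. In immune cells, and in others under interferon, the cutting subunits Psmb5, Psmb6 and Psmb7 can be exchanged for Psmb8, Psmb9 and Psmb10, and the PA28 activator made of Psme1 and Psme2 can dock on the core, which changes the peptides that reach MHC class I molecules.

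Psme2 and Psme2b were considered together because their sequences bear on how far each count can be read. The coding sequence in the GENCODE transcript of each was 720 bases long, and the pair differed at 5 positions, an identity of 99.3%, with a longest identical run of 311 bases. The stretch of 90 bases with the most differences, coding bases 454 to 543, is shown with the differing bases in capitals.
Psme2: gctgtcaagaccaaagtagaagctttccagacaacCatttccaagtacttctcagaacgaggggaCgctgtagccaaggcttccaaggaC
Psme2b: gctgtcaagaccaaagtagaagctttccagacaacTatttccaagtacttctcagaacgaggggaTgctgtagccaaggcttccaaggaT
Only 3 bases separated the copies in this stretch. A read from most of the coding sequence matches both, and how the counting shared such reads between them is not given in the sources used here. By contrast, no stretch of 42 bases in the transcripts of Psmb8, Psmb9, Psmb10 or Psma8 was found in another annotated gene.

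Libraries held 14879734 to 17757918 reads. Cx3cr1 itself averaged 304 ± 24.2 scaled reads over the 3 Input libraries and 8316 ± 1473 over the Positive ones (SD, n = 3 each), where scaled reads are the deposited raw reads adjusted for each library's size. Of the study's microglial genes, 231 of 235 were higher in Positive. Of its astrocyte genes, 85 of 138 were lower, and of its oligodendrocyte genes 135 of 183. Among its neuronal genes 21 of 98 were higher and 18 lower, beside 24% and 22% of all genes tested. Their median log2 fold change, Positive over Input, was -0.01. Psmb8 is one of the microglial genes of that list, so the list is no independent evidence about Psmb8.

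Across the family, 24 of the 49 genes were higher in Positive, 1 was lower and 24 did not pass the test (edgeR quasi-likelihood test, Benjamini-Hochberg adjusted p under 0.05). Of all 15344 genes tested, 46% passed, with 24% higher and 22% lower. The median log2 fold change, Positive over Input, was 0.22 over the 49 genes and -0.01 over all genes tested. All 3 Positive libraries lay above all 3 Input libraries for 32 of the 49 genes and below them for 2, beside 28.9% and 27.6% of all genes. With the study's minimum fold required as well, at least 25% more reads in the higher fraction, 14 were higher and 1 was lower, beside 20.5% and 19.3% of all genes, so 10 of the 24 increases lay below that fold. Psmb9 and Psma8 are among the higher genes in each of these counts. Both passed the filter only through Positive, so they add no independent evidence of the direction. Positive is ribosome-bound RNA pulled down from the homogenate that gave Input. Enrichment of tagged cells, carry-over of other RNA, RNA per cell and ribosome binding cannot be told apart in this contrast.

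**Figure D1:**
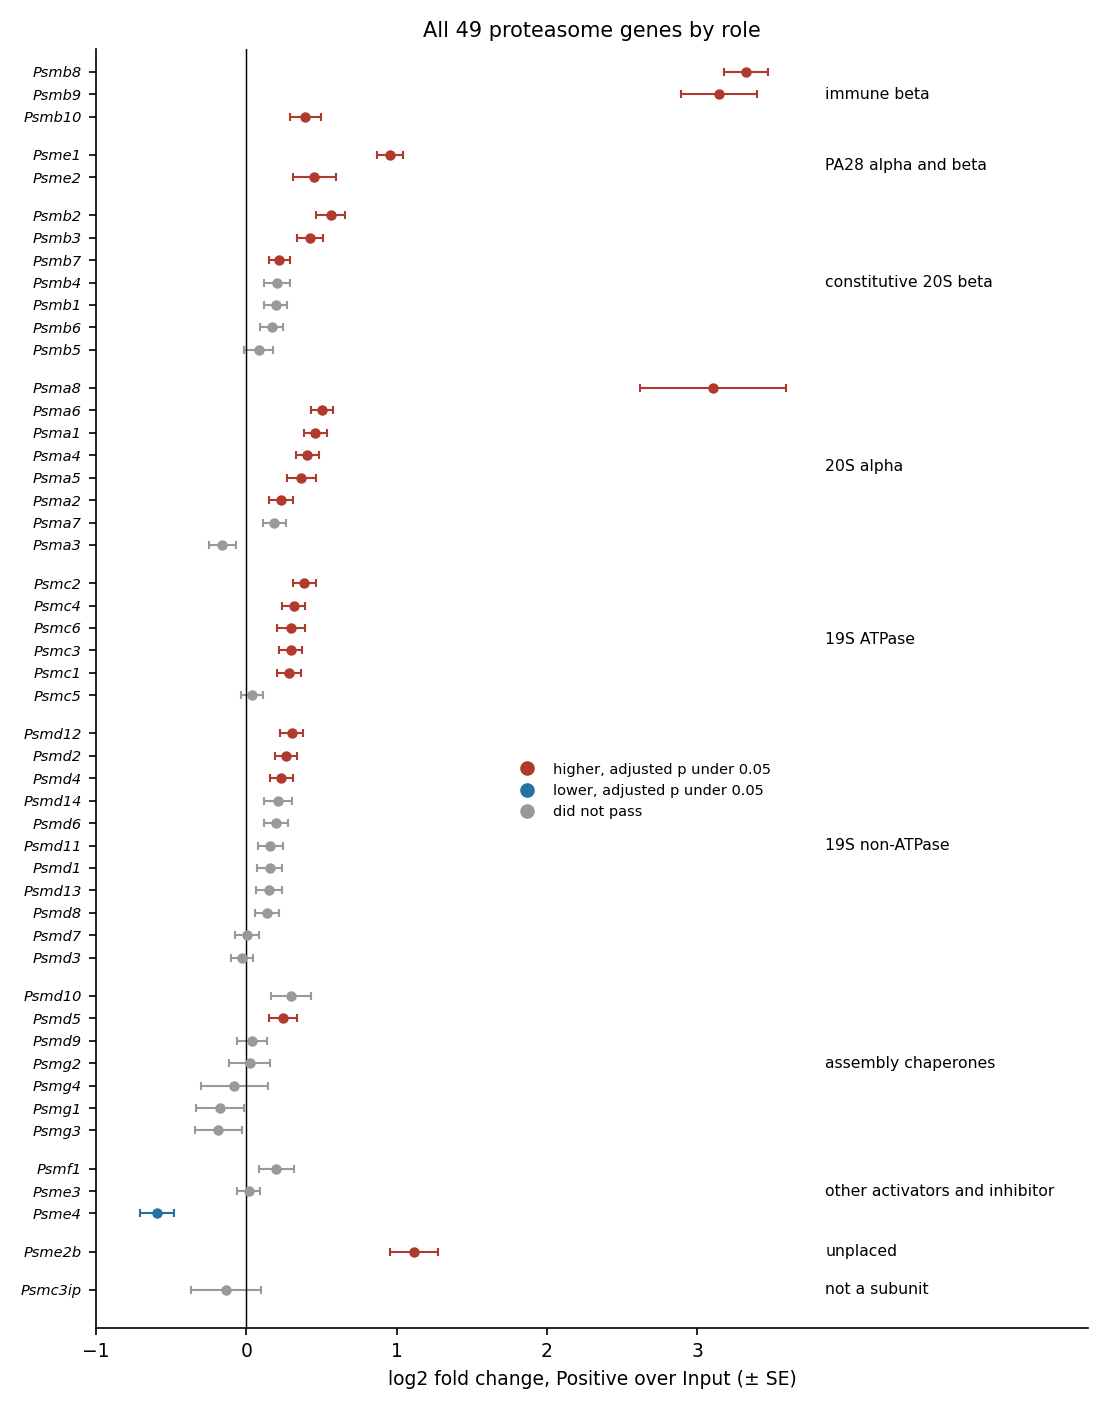
Log2 fold change of Positive over Input with its standard error (horizontal axis) for each of the 49 genes (vertical axis), grouped by role, with colour giving the outcome of the edgeR test. Psmb8, Psmb9 and Psma8 lie above 3, while the constitutive subunits of core and cap other than Psma8 lie between -0.16 and 0.56.

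The first question was whether the cutting subunits of the immune form differed between fractions. All 3 of them were higher in Positive, but to unequal extents, with folds of about 10.0 for Psmb8, 8.85 for Psmb9 and 1.31 for Psmb10. Psmb8, which takes the place of Psmb5 and cuts after hydrophobic residues, lies at chr17:34197721-34201454 on the plus strand (mm10, ENSMUSG00000024338). Its scaled reads in animals 201, 207 and 208 were 86.7, 79.9 and 85.4 in Input and 915, 916 and 688 in Positive. The fractions were far apart and the Positive library of animal 208 was the lowest of its fraction. The log2 fold change was 3.32 (SE 0.145, adjusted p = 1.39e-09 by edgeR).

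Psmb9, which takes the place of Psmb6, lies next to it at chr17:34181988-34187764 on the minus strand (ENSMUSG00000096727). Its scaled reads were 19.4, 38.5 and 29.4 in Input and 279, 306 and 194 in Positive. Again every Positive library lay above every Input library, and animal 208 gave the lowest Positive value. The log2 fold change was 3.15 (SE 0.253, adjusted p = 4.84e-07 by edgeR). The value of Input 201 lay just under the filter of 20 scaled reads, so Psmb9 entered the test only through its Positive libraries. Its separation and its call are therefore no independent evidence of the direction. Between Psmb9 and Psmb8 lies Tap1, a subunit of the peptide transporter into the endoplasmic reticulum, whose exons overlap those of Psmb9 by 212 bases on the other strand. Counting used the strand of the directional libraries. Tap1 had a log2 fold change of 1.37 (SE 0.177).

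Psmb10, which takes the place of Psmb7 and lies at chr8:105935735-105938444 on the minus strand (ENSMUSG00000031897), differed least. Its scaled reads were 579, 613 and 597 in Input and 898, 705 and 744 in Positive. Positive lay above Input throughout, and animal 201 gave the highest Positive value. The log2 fold change was 0.39 (SE 0.104, adjusted p = 0.0083 by edgeR). This gene already had many reads in Input, where Psmb8 and Psmb9 had few.

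Of the 3 constitutive counterparts, Psmb7 alone passed the test. Psmb5 had 1274, 1642 and 1502 scaled reads in Input and 1454, 1555 and 1670 in Positive, groups that overlapped, with a log2 fold change of 0.08 (SE 0.0981, adjusted p = 0.523 by edgeR). Psmb6 had 1577, 1762 and 1665 in Input and 1940, 1794 and 1887 in Positive, groups that did not overlap, but its log2 fold change of 0.17 did not pass (SE 0.077, adjusted p = 0.0936 by edgeR). Psmb7 had 2082, 2229 and 2106 in Input and 2525, 2495 and 2455 in Positive, and was higher with a log2 fold change of 0.22 (SE 0.0717, adjusted p = 0.0245 by edgeR). This call did not pass when any 1 of Input 201, Input 208, Positive 201 or Positive 207 was left out, with adjusted p from 0.0555 to 0.0992, nor under scaling by total counts (0.122) or in limma (0.0817). Psmb5 shared 65% of its 42-base windows with other genes, 54.3% with the processed pseudogene Gm3375, and the log2 fold change of Psmb5 and Gm3375 counted together was 0.07 (adjusted p = 0.606 by edgeR).

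**Figure D2:**
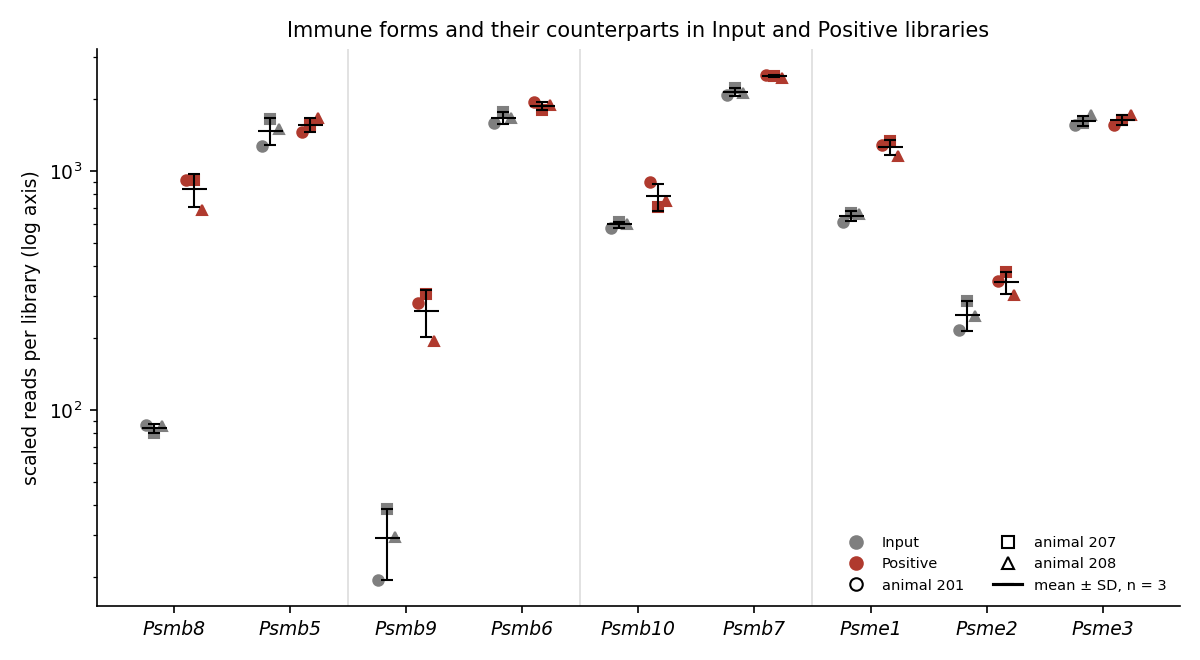
Scaled reads per library on a log axis (vertical) for the 5 immune forms and their constitutive counterparts (horizontal), with Input in grey and Positive in red, a symbol per animal, and black marks for mean ± SD (n = 3). Psmb8 and Psmb9 differ by about 10.0-fold and 8.85-fold between fractions while Psmb5 overlaps and Psmb6 and Psmb7 are close.

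The exchange of cutting subunits was then followed as a ratio within each library. The ratio of Psmb8 to Psmb5 was 9.22-fold higher in Positive, with log2 changes of 3.19, 3.58 and 2.84 in animals 201, 207 and 208. The ratio of Psmb9 to Psmb6 was 7.85-fold higher, with log2 changes of 3.48, 2.93 and 2.50. Both rose in all 3 animals without overlap between fractions, and each had an exact permutation p of 0.1 (two-sided, adjusted over the 5 ratios to 0.167), the smallest that 3 against 3 libraries allow. The ratio of Psmb10 to Psmb7 was 1.12-fold higher, with log2 changes of 0.36, 0.04 and 0.10. Its exact permutation p was 0.2 and its fractions overlapped, so a change in this ratio was not shown. A test within animals could not go below 0.25, the p that all 5 ratios gave. As Psmb9 passed the filter only through Positive, the rise of its ratio to Psmb6 is no independent evidence of the direction.

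Levels of different genes can be compared only per length, and scaled reads were therefore divided by the length of the longest protein-coding transcript. On this scale Psmb8 was 3.09% ± 0.505 of Psmb8 plus Psmb5 in Input and 22.9% ± 3.89 in Positive (SD, n = 3). Psmb9 was 1.01% ± 0.278 of Psmb9 plus Psmb6 in Input and 7.57% ± 1.73 in Positive. Psmb10 was 19.8% ± 0.249 of Psmb10 plus Psmb7 in Input and 21.7% ± 2.03 in Positive. The constitutive form thus had the larger per-length level of each pair in both fractions. These are levels of each whole fraction, and RNA from tagged and other cells was not separated within Positive. The study's neuronal genes, with a median log2 fold change of -0.01, were not depleted there as a set. The study itself describes marker genes of other cell types as generally depleted in hippocampal Positive, which differs from this value for the neuronal list. The size of the shares, and in Positive the order of Psmb8 and Psmb10, depended on the length used. With all exons joined, the shares of Psmb8 were 1.51% and 12.6%, those of Psmb9 0.875% and 6.63%, and those of Psmb10 35.9% and 38.6%.

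**Figure D3:**
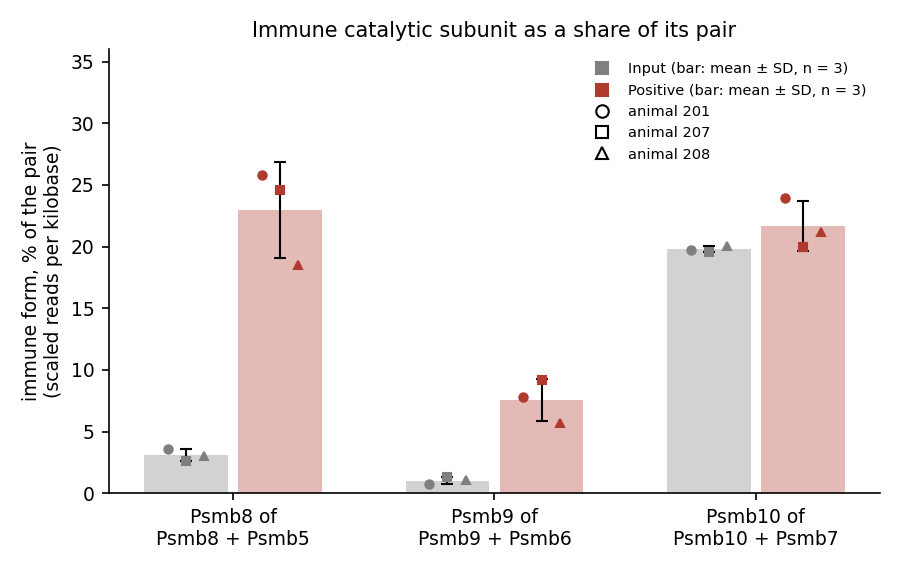
Share of the immune form in the per-length reads of each pair (vertical, percent) for Psmb8, Psmb9 and Psmb10 (horizontal), with bars for the mean, error bars for the SD (n = 3) and a symbol per animal. The Psmb8 share goes from 3.09% in Input to 22.9% in Positive and the Psmb9 share from 1.01% to 7.57%, whereas the Psmb10 shares are 19.8% and 21.7%.

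Of the PA28 activator, both subunits were higher in Positive. Psme1, the alpha subunit, lies at chr14:55578123-55581529 on the plus strand (ENSMUSG00000022216). It had 610, 664 and 662 scaled reads in Input and 1277, 1329 and 1150 in Positive. The fractions did not overlap and the log2 fold change was 0.96 (SE 0.088, adjusted p = 1.85e-06 by edgeR).

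Psme2, the beta subunit, lies beside it at chr14:55587441-55591113 on the minus strand (ENSMUSG00000079197). It had 216, 286 and 247 scaled reads in Input and 347, 376 and 303 in Positive, with a log2 fold change of 0.45 (SE 0.14, adjusted p = 0.0189 by edgeR). The groups did not overlap, but the lowest Positive value lay close to the highest Input value. The call was lost when Input 201 was left out (adjusted p = 0.0758), when Input 208 was left out (adjusted p = 0.0581) and when Positive 207 was left out (adjusted p = 0.08).

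The copy Psme2b, at chr11:48945354-48946190 on the minus strand (ENSMUSG00000078153), had 98.6, 116 and 114 scaled reads in Input and 250, 263 and 202 in Positive. Its log2 fold change of 1.11 (SE 0.16, adjusted p = 0.000104 by edgeR) was numerically larger than that of Psme2, a difference that was not tested. As the sequences above show, the copies differ at few bases, and 62.2% of the 42-base windows of Psme2 also lay in Psme2b. Counted together, the pair averaged 359 ± 44.0 scaled reads over the Input libraries and 580 ± 69.1 over the Positive ones (SD, n = 3). The log2 fold change of the sum was 0.69 (SE 0.125, adjusted p = 0.000662 by edgeR). Psme2b held 28.9% to 31.6% of the sum in Input and 40.0% to 41.8% in Positive, ranges that did not overlap, and the fold changes of each alone are uncertain.

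The other activators did not share this direction. Psme3, the gamma subunit of a nuclear PA28, had 1562, 1580 and 1709 scaled reads in Input and 1550, 1633 and 1719 in Positive. The fractions overlapped and the log2 fold change was 0.01 (SE 0.0779, adjusted p = 0.895 by edgeR). The ratio of Psme1 to Psme3 was 1.92-fold higher in Positive (exact permutation p = 0.1, adjusted 0.167) and that of Psme2 to Psme3 1.36-fold higher (exact permutation p = 0.2, adjusted 0.2), each in 3 of 3 animals. For Psme2 to Psme3 the fractions overlapped, with log2 ratios of -2.46 in Input 207 and -2.50 in Positive 208. A change in that ratio was therefore not shown.

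Psme4, which encodes the activator PA200, was the only gene of the 49 that passed the test as lower. It had 691, 710 and 701 scaled reads in Input and 455, 539 and 399 in Positive. Every Positive library lay below every Input library, and animal 208 was the lowest. The log2 fold change was -0.59 (SE 0.113, adjusted p = 0.000929 by edgeR), and the call held in every alternative fit run, with values from -0.72 to -0.49. Psmf1, an inhibitor of the core, had 438, 428 and 434 scaled reads in Input and 534, 538 and 418 in Positive, a log2 fold change of 0.20 that did not pass (adjusted p = 0.185 by edgeR). Without Positive 208, whose value lay below the Input values, it passed with a log2 fold change of 0.31 (adjusted p = 0.0221).

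The constitutive core and cap made up the largest part of the family. Of these 32 subunits, 17 were higher and 15 did not pass, with a median log2 fold change of 0.22. Over all genes tested, 24% were higher and 22% lower, shares that stand beside the count of each group below. Without Psma8 the count was 16 of 31, the median remained 0.22, and the values ran from -0.16 to 0.56. In animals 201, 207 and 208 the medians over those 31 were 0.30, 0.16 and 0.26.

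Among the alpha subunits, which form the outer rings and the gate of the core, 5 of the 7 other than Psma8 were higher, with a median log2 fold change of 0.37, though the call of Psma2 was lost in 7 of the 13 alternative fits. Psma6 had the largest of these at 0.51 (SE 0.073, adjusted p = 0.000106 by edgeR). Psma3 ran the other way, with 775, 922 and 861 scaled reads in Input and 760, 762 and 766 in Positive. All its Positive values lay below all its Input values, but the log2 fold change of -0.16 did not pass (SE 0.0896, adjusted p = 0.16 by edgeR). It passed only under scaling by total counts, where it was -0.24 (adjusted p = 0.0446). Of its 42-base windows 22.2% also lay in the pseudogene Gm13835, whose log2 fold change was 0.02.

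Psma8, an alpha subunit known from the testis, where it takes the place of Psma7 in germ cells, was at the bottom of the family in level. It had 4.08, 3.76 and 2.10 scaled reads in Input and 22.7, 44.6 and 20.8 in Positive, from 2 to 4 raw reads per Input library. Positive was above Input throughout, with a log2 fold change of 3.10 (SE 0.483, adjusted p = 0.000196 by edgeR). As it passed the filter on low values only through Positive, the choice of genes required a high Positive level, and its call is no independent evidence of the direction. With so few reads in Input the size of the fold is imprecise, and over the alternative fits it ran from 2.66 to 3.30. Per length it ranked 49 of 49 in both fractions, at 1.96 ± 0.629 scaled reads per kilobase in Input and 17.3 ± 7.84 among the Positive libraries (SD, n = 3).

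Of the 7 constitutive beta subunits, 3 were higher (Psmb2, Psmb3 and Psmb7), with a median log2 fold change of 0.20. Psmb2, a structural subunit of the beta ring, had 628, 520 and 626 scaled reads in Input and 866, 863 and 887 in Positive. Its fractions lay well apart, with a log2 fold change of 0.56 (SE 0.0962, adjusted p = 0.00042 by edgeR), the largest of the group. Psmb1 and Psmb4 had non-overlapping fractions but adjusted p of 0.053 and 0.0792 by edgeR, and both passed when the animal was fitted as a replicate block, at 0.0444 and 0.0462.

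In the 19S cap, 5 of the 6 ATPases were higher, with a median log2 fold change of 0.29. Psmc2 had 1789, 1950 and 1999 scaled reads in Input and 2509, 2447 and 2542 in Positive, a log2 fold change of 0.39 (SE 0.0751, adjusted p = 0.00111 by edgeR). Psmc5 had 2534, 2757 and 2535 in Input and 2729, 2556 and 2754 in Positive, groups that overlapped, and its log2 fold change of 0.04 did not pass (adjusted p = 0.711 by edgeR). The remaining ATPases, Psmc1, Psmc3, Psmc4 and Psmc6, had log2 fold changes between 0.29 and 0.31. The call of Psmc6 was lost in 5 of the 13 alternative fits and that of Psmc1 in 3 of them. Psmc5 was the only ATPase of the ring that did not pass.

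Of the 11 non-ATPase subunits of the cap, 3 were higher, namely Psmd12, Psmd2 and the ubiquitin receptor Psmd4, and the median log2 fold change was 0.16. This count lay near the 24% higher over all genes tested. The call of Psmd4 was lost in 6 of the 13 alternative fits and that of Psmd2 in 2 of them. Both calls were lost in limma and also without Input 208, and each of these fits left 1 of the 11 higher. Psmd12, which belongs to the lid of the cap, had 1066, 1097 and 1093 scaled reads in Input and 1345, 1304 and 1362 in Positive, a log2 fold change of 0.30 (SE 0.0742, adjusted p = 0.00533 by edgeR). At the other end, Psmd3 had 2403, 2355 and 2270 in Input and 2337, 2167 and 2390 in Positive, with a log2 fold change of -0.03 (adjusted p = 0.784 by edgeR). Psmd14, the enzyme that removes ubiquitin chains, had a log2 fold change of 0.21 that did not pass (adjusted p = 0.082 by edgeR). Psmd6, at 0.19, passed with the animal as a replicate block (adjusted p = 0.0471) and not without it (adjusted p = 0.0659 by edgeR).

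Of the 7 chaperones that help assemble core and cap, Psmd5 alone was higher, with a log2 fold change of 0.24 (SE 0.0919, adjusted p = 0.0442 by edgeR), a call lost in 10 of the 13 alternative fits. The median of the group was 0.02 and changed sign under scaling by total counts (-0.06) and without Positive 207 (-0.03). Psmd10 had 291, 264 and 266 scaled reads in Input and 314, 392 and 301 in Positive, and its log2 fold change of 0.29 did not pass (adjusted p = 0.0873 by edgeR), although the fractions did not overlap. Psmg3 had 161, 203 and 178 in Input and 145, 152 and 177 in Positive, with a log2 fold change of -0.19 (adjusted p = 0.352 by edgeR). Psmc3ip, the gene that is no subunit, had a log2 fold change of -0.14 (adjusted p = 0.66 by edgeR).

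**Figure D4:**
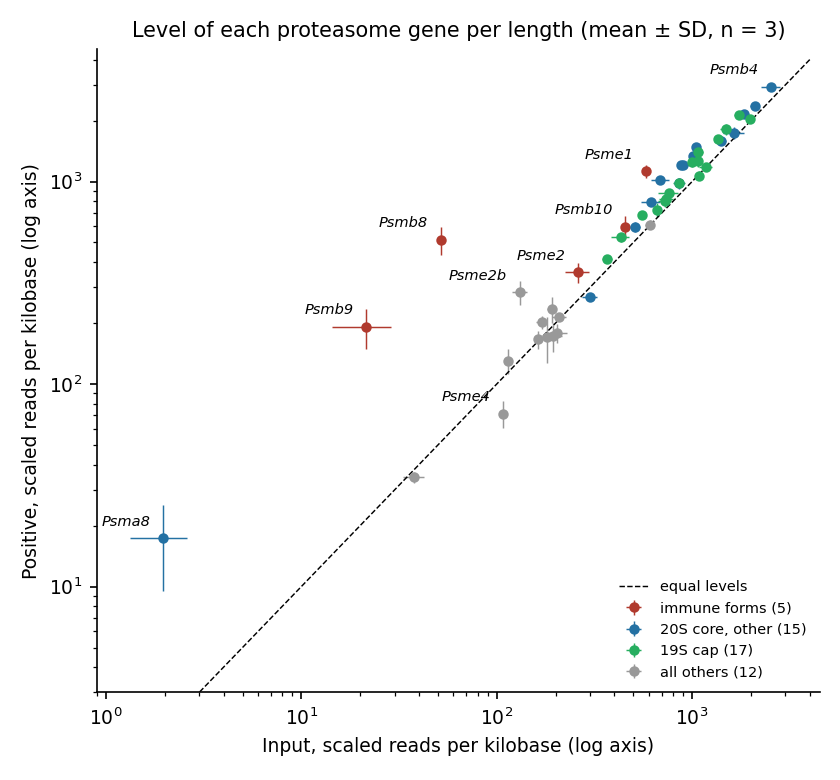
Mean scaled reads per kilobase of each of the 49 genes in Input (horizontal, log axis) and Positive (vertical, log axis), with SD over 3 libraries and a dashed line at equal levels. Most genes lie just above the line, Psmb8, Psmb9 and Psma8 lie far above it, and Psme4 lies below it.

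By the length of the longest transcript, Psmb4 ranked first of the 49 in both fractions, at 2546 ± 284 scaled reads per kilobase in Input and 2932 ± 105 in Positive (SD, n = 3), followed by Psmb6 at 2090 ± 116 and 2348 ± 92.6. With all exons joined, a length tried after seeing the data, Psmc5 ranked first in both, at 1871 and 1922, Psmb4 had 1544 and 1778, and Psmb6 fell to ranks 7 and 8. By either length Psma8 was last in both fractions, and Psmb8 went from rank 47 to 34 with all exons joined. By the longest transcript, Psmb8 moved from rank 46 in Input to rank 33 in Positive, at 51.6 ± 2.23 and 516 ± 80.8 scaled reads per kilobase. Psmb9 moved from rank 48 to rank 41 and Psme1 from rank 28 to rank 18, while Psmb10 was at 31 and 30. In Positive, Psmb8 at 516 ± 80.8 and its neighbour in rank Psmc6 at 530 ± 25.7 lay within their spread, as did Psmb10 at 597 ± 78.0 and Psma2 at 596 ± 33.4.

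The values of markers of other cells are given beside the immune forms. All 6 border macrophage markers were higher in Positive, with summed scaled reads of 168 to 233 in Input and 2449 to 5270 in Positive and a median log2 fold change of 4.17. All 8 endothelial markers were higher as well, with sums of 1528 to 1883 and 4289 to 8555, a median log2 fold change of 1.97, and medians of 2.21, 2.23 and 1.17 in animals 201, 207 and 208. Of the 6 mural markers, 1 was lower (Cspg4) and 5 did not pass, with a median log2 fold change of -0.25. Of 3 monocyte markers only Ly6c2 had a row in the table, at 20.8 to 24.7 scaled reads in Positive, and of 4 neutrophil markers none had one. Of the lymphocyte markers, the B cell gene Cd79b averaged 4.07 ± 2.12 scaled reads across Input and 64.8 ± 22.5 across Positive (SD, n = 3), while the T cell gene Lck had 23.0 ± 1.67 and 14.9 ± 5.43. The border macrophage genes Pf4, Lyve1 and Ms4a7, and also Ly6c2 and Cd79b, passed the filter on low values only through Positive. Animal 208 gave the lowest Positive value of Psmb8, Psmb9, Psme1 and Psme2, and also of Psme2b. For the remaining immune form, Psmb10, animal 207 was lowest, at 705 beside 744 in animal 208. Psme4, which was lower in Positive, was lowest in animal 208 too, at 399. That animal also gave the lowest endothelial median and the lowest microglial median, at 3.36 beside 3.56 and 3.88. The part of these cells in the results for the immune forms was not tested.

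Genes that act before and after the proteasome were taken from lists. Their counts stand beside the 24% higher and 22% lower of all genes tested. For peptide loading onto MHC class I, all 8 genes were higher in Positive, with a median log2 fold change of 1.16. The light chain B2m had the largest value at 3.09 (SE 0.118), and the transporter subunits Tap1 and Tap2 had 1.37 and 0.96. The remaining genes ran from 0.38 for the chaperone Canx to 1.64 for tapasin, Tapbp, with the trimming peptidase Erap1 at 1.44.

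Of 12 genes on the interferon path that controls the immune forms, 9 were higher and 3 did not pass, with a median of 0.98. Among the receptors, Ifngr1 had a log2 fold change of 3.45 (SE 0.158) and Ifnar2 of 1.66 (SE 0.157), whereas Ifngr2 had 0.13 and did not pass (adjusted p = 0.332 by edgeR). Among the factors, Irf8 had 4.11 (SE 0.15), Nlrc5 1.58 and Irf1 1.42, and Stat2 had -0.01 (adjusted p = 0.965 by edgeR). Nlrc5 passed the filter on low values only through Positive, with 14.3 ± 3.34 scaled reads among the Input libraries (SD, n = 3), so its place among the 9 is no independent evidence.

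Lists of the general degradation path had smaller medians. Of 10 assembly and docking partners 3 were higher and 1 was lower, with a median of 0.10, and the lower one was Sem1, a small subunit of the cap whose symbol lies outside the rule, at -0.32 (SE 0.106, adjusted p = 0.025 by edgeR). Of 10 shuttle and ubiquitin genes 3 were higher and 2 lower, with a median of 0.14. The 3 of 10 higher in each of these lists lay near the 24% over all genes tested, of which 22% were lower. The polyubiquitin gene Ubb had 0.65 and the shuttle factor Rad23b 0.20, while the shuttle factor Ubqln4 was lower at -0.27. Rps27a, a fusion of ubiquitin with a ribosomal protein, had -0.09 and did not pass.

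Of 6 genes for the transcription of proteasome genes, 3 were higher and 2 lower. Nfe2l1, the factor known to raise proteasome genes when the proteasome is impaired, was lower with a log2 fold change of -0.24 (SE 0.078, adjusted p = 0.026 by edgeR), and its relative Nfe2l2 was higher at 1.82 (SE 0.182). Of 6 peptidases that act on proteasome products 4 were higher and 2 did not pass, with a median of 0.28 and the largest value for Lap3 at 0.75 (SE 0.135).

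**Figure D5:**
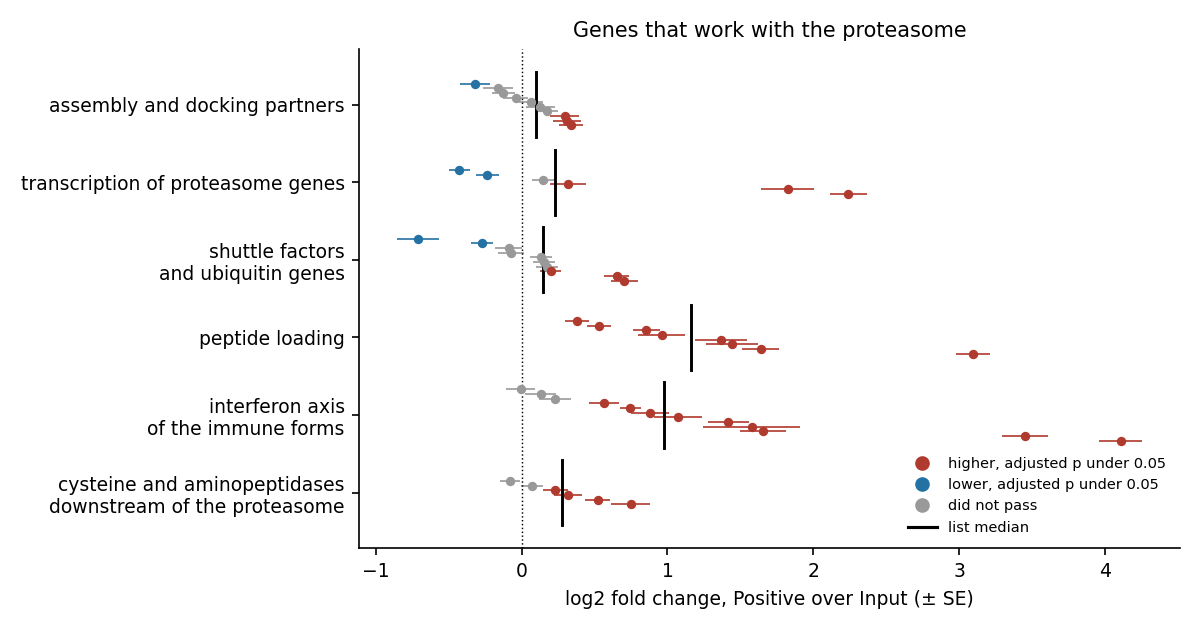
Log2 fold change of Positive over Input with its standard error (horizontal axis) for each gene of 6 lists of genes that work with the proteasome (vertical axis), coloured by the outcome of the edgeR test, with a black bar at each list's median. The peptide loading and interferon lists have medians of 1.16 and 0.98, and those of the other lists lie between 0.10 and 0.28.

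The promoters were searched on both strands for letters that related factors bind, in RefSeq windows (GRCm38.p6) from 250 bases before to 50 bases after a gene's start. Of the 49 genes 41 had a window, 44 windows in all, and the others could not be searched. Each gene named below held its letters in 1 window, so its counts can be read against the 44. The interferon-stimulated element, as GAAANNGAAA, was in the windows of 5 genes (Psmb3, Psmd4, Psmd9, Psme1 and Psmg4) and in 3.44% of all 32851 windows. The gamma-activated element, as TTCNNNGAA, was in 3 (Psmb8, Psmd2 and Psmg1) and in 8.3% of all windows. In Psmb8 its letters were TTCCCAGAA, 97 bases before the RefSeq start, which lies inside the first exon of a longer GENCODE transcript of the gene, in its untranslated part. The PU.1 letters GAGGAAGT were in 3 (Psma6, Psmc1 and Psmc2) and in 3.2% of all windows, and the antioxidant element, as TGACNNNGC, was in 6 (Psmb5, Psmb6, Psmc6, Psmd12, Psmd9 and Psme4) and in 12.4%. Among the immune forms that had a window, Psme1 held the interferon-stimulated letters and Psmb8 the gamma-activated letters. These are matches of letters and no evidence of binding.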

How the data were processed

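Translating ribosome affinity purification (TRAP) RNA-seq was available for 3 mice, as 1 Input and 1 Positive library each, grouped by the fraction label; the unbound fraction was not analysed here. The authors aligned trimmed, directional read pairs to mm10 in Strand NGS and kept genes that reached 20 raw reads in all libraries of either fraction. The deposited raw columns are expected counts, that is estimated counts, which were rounded here. The deposited log2 columns are DESeq-scaled reads relative to the median Input, and served as an alternative only. The other columns hold gene annotation. Values of the authors' own comparisons were not used.

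Genes above 20 scaled reads in all libraries of either fraction (15344 of 15388) were tested unpaired with edgeR 4.0.16 (quasi-likelihood, median-of-ratios scaling, R 4.3.3), and the Benjamini-Hochberg adjustment covered all of them. The method was tested on simulated data. Same-numbered libraries come from the same animal, and their deviations from the fraction means correlated at 0.194, 0.058 and 0.12. Blocked values are given where a call changed. Ratios were compared by exact permutation with scipy 1.17.1. Lengths and sequences came from GENCODE vM21 and coordinates are mm10. Errors cover 3 animals, and reads carried no molecular identifiers. Alternatives were other scalings and filters, DESeq2 1.42.0, limma 3.58.1, a replicate block, the study's minimum fold and leaving out each library. Genes named were the immune forms, their counterparts and the highest and lowest of each group of at least 3, and others were chosen with their values in view. The members and lists were chosen with earlier results of these data known. Some genes of the lists are not reported here by name.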

Additional observations from a re-analysis of the deposited data

How the results depend on the processing

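Over 47 results and 427 alternative values, the log2 fold changes of Psmb8, Psmb9, Psmb10, Psme1, Psma8 and Psme4 kept direction and call wherever they were tested. For Psmb9 and Psma8, which passed the filter on low values only through Positive, this is no independent evidence of the direction. The authors had already filtered the deposited genes, so the alternative without a filter does not lift that limit. The number of genes higher in Positive, 24 in the report, was 14 with the study's minimum fold (25% more reads) and 17 to 25 when 1 library was left out. With the animal as a replicate block it was 27 (Psmb1, Psmb4 and Psmd6 were added), and the block changed no other call among the 49 genes. Scaling by total counts moved the median of all genes by -0.08, gave 2 lower genes in place of 1, and gave a median over the 49 genes of 0.14. Without Input 201, Input 208 or Positive 207, Psme2 had log2 fold changes from 0.36 to 0.44 and did not pass (lowest 0.359 and highest 0.564 over all single libraries left out). Directions near 0 changed for Psmb5 (-0.0118 without Input 201 to 0.168 without Input 207), Psmc5 (-0.0389 under total counts), Psmd3 (0.0127 without Positive 207 to -0.0562 without Positive 208) and Psme3 (-0.0622 under total counts, -0.0128 with a mean of at least 100 reads, -0.00258 by limma, -0.00926 without Input 201, -0.00135 without Input 207 and -0.0217 without Positive 208, against 0.0568 without Input 208). The chaperone median was -0.0566 under total counts and -0.0303 without Positive 207, and Psmd7, Psmd9, Psmg2 and Psmg4, none of which passed, also crossed 0. The causes were not tested. Depth limits Psma8 and Psmb9 in Input, and reads shared between copies limit Psme2, Psme2b and Psmb5, but not these alone. Among genes called higher, Psmb3 shared 61.2% of its 42-base windows with other genes, Psma5 58.3%, Psmd2 33.0%, Psma4 30.4% and Psmc1 25.4%. Of the Psmd2 windows, 30.3% lay in the pseudogene Gm5422, itself higher with a log2 fold change of 0.48 (adjusted p = 0.0299 by edgeR). The effect of this sharing on their calls was not tested.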
